A study of Oncorhynchus mykiss with 14 samples.

Results

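The 200 transcripts described here marked the clutch that an egg came from. Relative to the mean of each treatment, their levels were mostly close in the 2 libraries of a female and differed between females. The transcripts were selected on that very property from 17888 genes with at least 10 counts in each of the 14 libraries, out of 64494 annotated genes. For each gene the log2 of the counts per 1000000 counts of all genes (CPM) was centred within each treatment, and the F statistic compared the variance between the 7 females with the variance between the 2 libraries of a female. The 200 genes with the highest F were taken, so the size of the female differences below is a description of how the transcripts were chosen and carries no test.

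The eggs came from 7 rainbow trout females of the Rutki strain, numbered F1, F2, F3, F4, F6, F7 and F8, and each library was made from the RNA of 2 to 3 whole eggs. In the gynogenetic group, eggs were activated with UV-irradiated sperm of European grayling (a mixture of several males), which triggers development without contributing a working paternal genome. For the control group, eggs from that clutch were fertilised with untreated rainbow trout sperm of a single male. The GEO genotype label XX, Doubled Haploids stands on all libraries of both groups, and the methods place the sampling of the eggs directly after the treatment. According to the methods, control eggs did not get the pressure shock that doubles the maternal chromosomes. Whether the sequenced gynogenetic eggs had it is stated neither by the labels nor by the methods. A clutch stands for 1 female, and eggs were pooled within it, so differences between single eggs of a clutch cannot be seen.

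An egg at this stage does not yet transcribe its own genome. Its messenger RNA was made by the mother while the oocyte grew, was stored, and serves the first cell divisions until the embryo's genome is switched on. The rainbow trout genome also keeps many near-identical gene copies from an ancient duplication in salmonid fishes, and reads that aligned to several places were set apart in the files' summary lines, so the level of a single identifier is uncertain where it has such a copy.

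A gynogenetic library held 45860801 to 67557305 counts over all genes and a control library 34535902 to 57014149. Of the counts above 0, 99.7% to 99.8% were even numbers in every library, and so were 99.5% of the counts of the 200 transcripts. Counts were thus made as if nearly every fragment had been entered 2 times, and 100 counts stand for about 50 fragments, with a counting error of 14.1%, while the minimum of 10 counts stands for about 5 fragments. The only egg marker with an identifier in the sources, the cyclin B1 gene ccnb1, was at 2016 to 2796 CPM in gynogenetic libraries and 1653 to 2502 CPM in control libraries. The markers of other cell types had no identifier and were not checked.

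None of the 200 transcripts has a symbol in the sources used here. The study's supplements name 274 Ensembl genes, which it had selected for correlation with survival. Of these, 206 were among the 17888 and 0 among the 200. The RefSeq gene table gives an Ensembl identifier for 0 of its 72772 genes. The transcripts are therefore given by Ensembl identifier without a function, position or sequence. Of the 17 gene lists drawn up for pathways and gene families, 0 had a member among them. Without symbols no member could be matched, so this 0 says nothing about the families of the transcripts. Among the genes named by the study, the highest placed with a symbol was cse1l (ENSOMYG00000027583), a nuclear export factor, at rank 468 with an F of 55.1. It was at 87.3 to 252 CPM in the gynogenetic libraries and 75.8 to 222 CPM in the control libraries.

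Among the 200 transcripts F ran from 92.6 to 1158 with a median of 133, against a median of 5.02 over the 17888 genes. The last transcripts taken were ENSOMYG00000056513 with an F of 93.1, ENSOMYG00000074805 with 92.9 and ENSOMYG00000025779 with 92.6. The first left out were ENSOMYG00000021213 with 92.5, ENSOMYG00000002652 with 92.3 and ENSOMYG00000019640 with 92.2. F fell smoothly across this limit, so the number 200 is a convention and not a break in the data.

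The transcripts were of moderate abundance. Their mean level was 2.06 to 560 CPM with a median of 29.4, against a median of 12.7 CPM over the 17888 genes. Together they held 1.03% to 1.27% of the assigned counts of a gynogenetic library and 0.992% to 1.24% of those of a control library. The most abundant, ENSOMYG00000057261, was at 327, 425, 329, 801, 779, 318 and 1020 CPM in the gynogenetic libraries of females F1, F2, F3, F4, F6, F7 and F8, against 316, 440, 280, 852, 720, 300 and 937 CPM in their control libraries. Both libraries of females F4, F6 and F8 were above every library of the other 4 females. Below, values in 7 libraries follow the same order of females.

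Between the lowest and the highest female, the levels of the 200 transcripts spanned 1.69-fold to 497-fold, with a median of 10.7-fold, against a median of 2.72-fold over the 17888 genes. A span of at least 10-fold was seen in 104 of the 200 and in 5% of the 17888, and one of at least 100-fold in 11 of the 200 and in 17 of the 17888. The SD between the 2 libraries of a female, after centring, had a median of 0.14 log2 in the transcripts and 0.31 log2 in the 17888 genes. In the plot of the spread between and within females the transcripts lie along the upper left edge of the cloud, where the choice by F placed them.

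**Figure D1:**
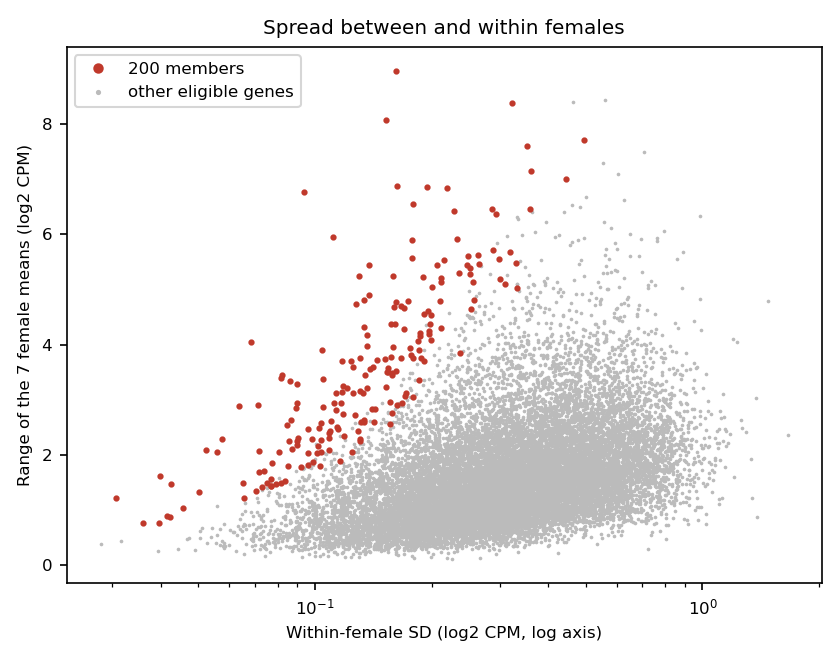
Range of the 7 female means (log2 CPM) against the within-female SD (log2 CPM, log axis) for the 17888 genes with enough counts, 1 point per gene. The 200 members in red lie at the upper left, with a median range of 3.42 log2 and a median SD of 0.14 log2, against 1.44 and 0.31 log2 over all 17888 genes.

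A wide range was not needed to be chosen. ENSOMYG00000026951, with the narrowest range, was at 38.4, 42.5, 48.7, 59.8, 57.3, 53.6 and 68.0 CPM in gynogenetic libraries and 40.8, 44.5, 52.4, 64.2, 56.4, 55.8 and 66.0 CPM in control libraries. Its 2 libraries per female were so close, with an SD of 0.04 log2, that the females kept separate levels within a span of 1.69-fold. In ENSOMYG00000007463 the SD was 0.03 log2, the smallest among the 200. Its levels were 85.8, 85.4, 98.9, 138, 87.0, 95 and 61.0 CPM in gynogenetic libraries against 85.8, 89.1, 96.6, 149, 90.9, 97.5 and 62.7 CPM in control libraries, with female F4 above and female F8 below the rest. Counting error gives the SD expected from counting alone, and an SD estimated from few libraries can fall below it. The within-female SD was 1.75 times the counting error, taken with 2 counts per fragment, in the median transcript and 3.29 times in the median of the 17888 genes. It lay below the counting error in 31 of the 200 transcripts (15.5%), against 1.3% of the 17888, and the choice by F favours such small SDs.

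**Figure D2:**
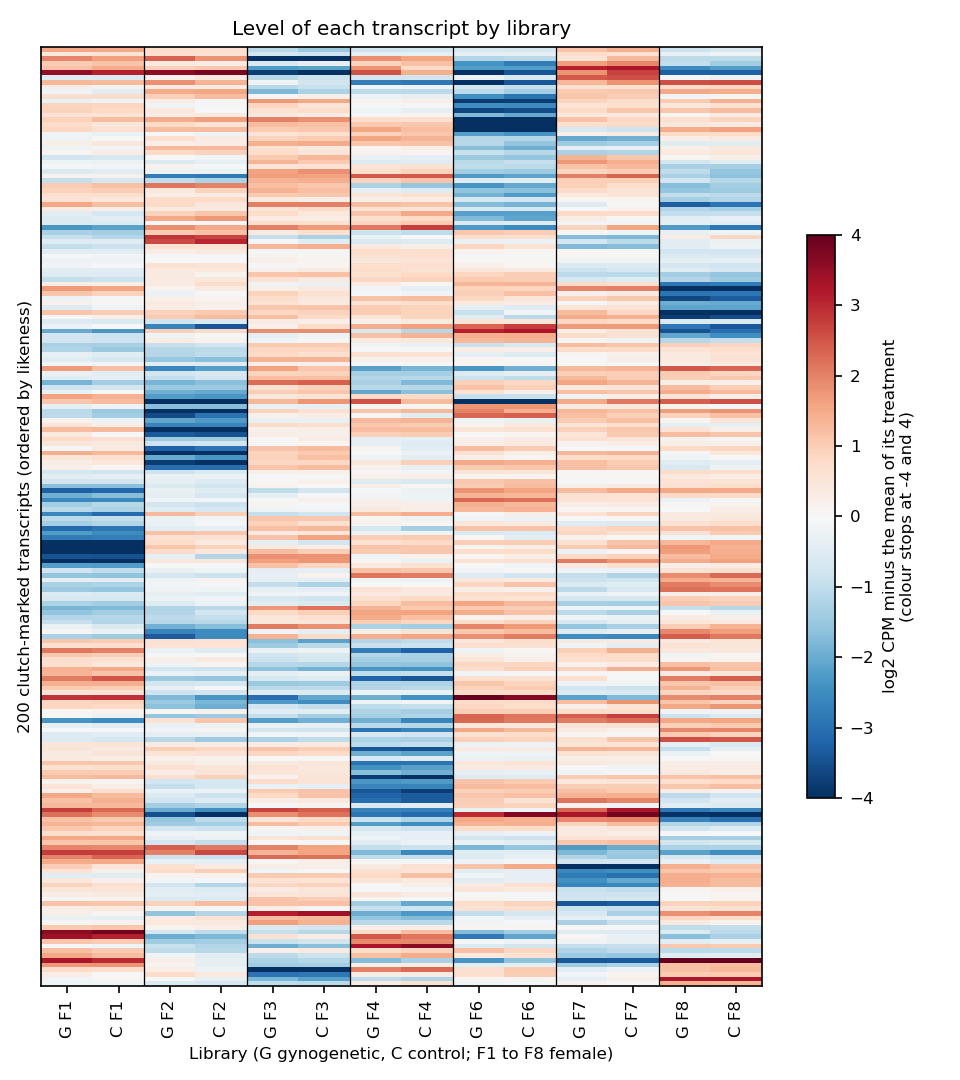
Heat map of the 200 transcripts (lines, ordered by likeness) in the 14 libraries (columns, G gynogenetic and C control, side by side for each female). Colour gives log2 CPM minus the mean of the treatment, red above and blue below, and the 2 columns of a female mostly carry similar colours. Blocks of dark blue in single females are transcripts in which that female was low alone, 51 in all.

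In 88 of the transcripts a wide gap divided the females, most often with 6 clutches above and 1 below it. A wide gap was counted where the largest step between neighbouring females was at least 50% of the whole log2 range and no library crossed it after centring by treatment. These 88 are 44% of the 200, and a wide gap was found in 15.9% of the 17888 genes. In 51 of the 88, 1 female was low alone (25.5% of the 200, against 7.43% of the 17888), and in 6, 1 female was high alone (3%, against 3.33%). The other wide gaps set apart 2 high females in 5 transcripts (2.5%, against 1.41% of the 17888) and 3 in 9 (4.5%, against 0.978%). They set apart 4 in 11 (5.5%, against 0.9%) and 5 in 6 (3%, against 1.83%). The choice by F favours wide differences between females, so these shares describe the list. The share with 1 female high alone was near that of all genes.

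The transcript with the highest F, ENSOMYG00000059980, was scarce in eggs of female F8 only. It was at 379, 128, 135, 107, 216, 445 and 4.16 CPM in the gynogenetic libraries, against 312, 130, 135, 83.3, 190, 424 and 3.81 CPM in the control libraries. The level in female F8 was 56.2-fold below the mean of the other 6 females, which themselves took several levels.

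ENSOMYG00000034649 had the widest range of all. Its levels were 57.7, 85.6, 123, 49.7, 0.247, 67.5 and 46.9 CPM in gynogenetic libraries and 71.2, 96.5, 108, 47.0, 0.219, 54.1 and 56.4 CPM in control libraries. Female F6 was 309-fold below the mean of the others, and with its lowest count at 10, about 5 fragments, the size of that fold is poorly fixed. A transcript with still fewer counts in 1 library could not enter the list, since 10 counts were needed in every library, so clutches that lack a message altogether are not represented.

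Female F2 was low alone in ENSOMYG00000045469, with 103, 1.79, 49.5, 103, 62.6, 85.1 and 65.0 CPM in gynogenetic libraries and 103, 1.52, 49.0, 101, 64.2, 89.8 and 49.5 CPM in control libraries. Female F1 was low alone in ENSOMYG00000071939, with 0.871, 92.9, 210, 71.2, 101, 285 and 191 CPM in gynogenetic libraries and 1.07, 95.4, 234, 58.2, 111, 235 and 219 CPM in control libraries. Female F4 was low alone in ENSOMYG00000071601, with 30.9, 18.6, 18.6, 1.87, 19.4, 19.3 and 16.9 CPM in gynogenetic libraries and 25.8, 14.2, 17, 1.58, 18, 15.1 and 14.2 CPM in control libraries. In each of the 3, the low female stood below all 12 libraries of the others, by 46.5-fold, 164-fold and 11-fold under their mean. The remaining females differed among themselves by much less.

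The same shape appeared in every clutch. Female F2 was low alone in 10 transcripts, F1 in 9, F6 in 9, F4 in 8, F8 in 8, F7 in 4 and F3 in 3. Over the 17888 genes the order was different, with F4 low alone in 357 genes, F1 in 255, F8 in 242, F2 in 156, F6 in 125, F7 in 100 and F3 in 94. For female F3 an example was ENSOMYG00000018233, with 17.5, 13.0, 0.463, 42.8, 16.5, 7.90 and 23.7 CPM in gynogenetic libraries and 27.7, 14.7, 0.570, 82.0, 34.7, 14.4 and 42.4 CPM in control libraries. For female F7 it was ENSOMYG00000035001, with 22.6, 17.6, 13.4, 14.5, 25.3, 0.414 and 30.9 CPM in gynogenetic libraries and 18.9, 16.6, 15.1, 20.2, 37.6, 0.637 and 29.7 CPM in control libraries. No female was without such transcripts, and the counts rest on few transcripts per female.

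**Figure D3:**
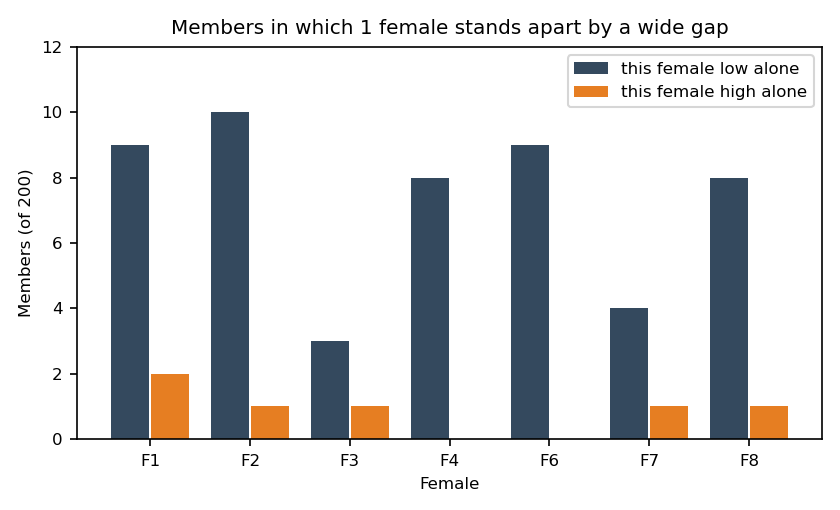
Number of the 200 members in which 1 female was low alone (dark) or high alone (orange), by female. Each female was low alone in 3 to 10 members, whereas the females high alone had 1 or 2 and F4 and F6 had 0.

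In these 51 transcripts the low female held between 0.324% and 22.2% of the mean of the other 6, with a median of 7.34%. The share was under 5% in 19 transcripts and from 5% to 25% in 32. The gap criterion itself keeps out smaller drops in transcripts whose other females also vary, so the absence of shares between 25% and 75% is partly set by the rule. The message was low but above 0 in both libraries of the female in all 51, as the minimum count required.

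A female that was high alone was the rarer shape. ENSOMYG00000010385 was at 3.12, 3.49, 0.964, 1.70, 3.71, 2.66 and 32.1 CPM in gynogenetic libraries and 3.13, 2.41, 0.677, 1.30, 3.19, 3.47 and 27.7 CPM in control libraries. Female F8 was 12-fold above the mean of the others. ENSOMYG00000022194 was highest in female F1, at 152 CPM in its gynogenetic library and 163 CPM in its control library, against at most 21.1 CPM in the other gynogenetic libraries and 26.5 CPM in the other control libraries.

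In other transcripts the females fell into a high and a low group of several clutches. ENSOMYG00000039299 was at 94.7, 1.79, 74.3, 2.77, 163, 198 and 1.36 CPM in gynogenetic libraries and 82.2, 1.13, 101, 2.56, 290, 313 and 1.21 CPM in control libraries, so that females F1, F3, F6 and F7 were high. ENSOMYG00000022358 was at 853, 895, 5.40, 440, 3.55, 262 and 7.68 CPM in gynogenetic libraries and 506, 821, 3.07, 159, 5.38, 386 and 6.15 CPM in control libraries, so that females F1, F2, F4 and F7 were high. The step between the groups was 32.5-fold in ENSOMYG00000039299 and 38.4-fold in ENSOMYG00000022358. ENSOMYG00000067278 had the largest step of this kind, 48.3-fold, with 31.1, 0.829, 37.3, 87.3, 0.556, 42.9 and 79.8 CPM in gynogenetic libraries and 24.3, 0.390, 34.8, 24.5, 0.525, 43.7 and 60.2 CPM in control libraries, females F2 and F6 being low. The groups differed from transcript to transcript: the 88 wide gaps divided the females in 38 different ways, and none of the ways with 2 to 5 high females was seen in more than 2 transcripts.

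**Figure D4:**
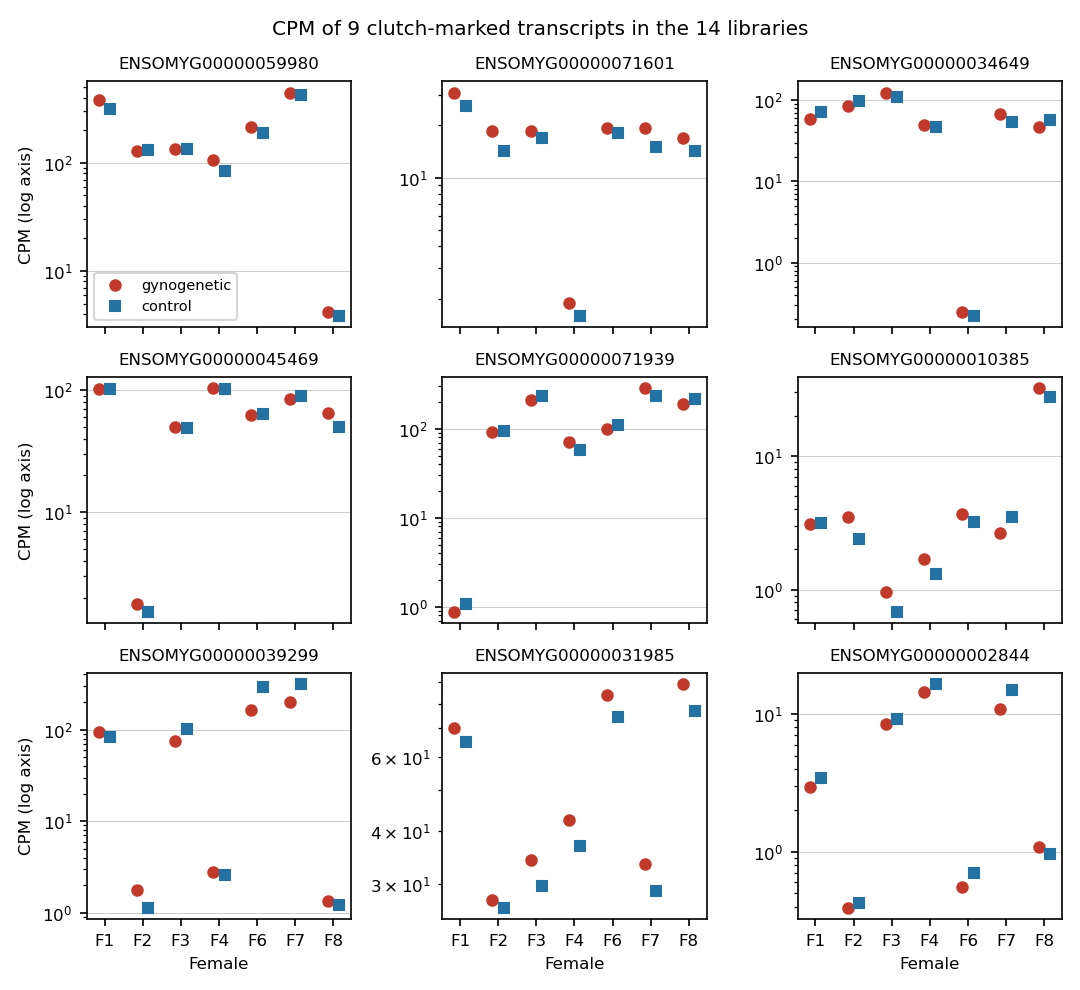
CPM (log axis) of 9 of the 200 transcripts by female, gynogenetic libraries as red circles left of the control libraries as blue squares. The first 5 have 1 female low alone, ENSOMYG00000010385 has female F8 high alone, ENSOMYG00000039299 has 4 high females, and ENSOMYG00000002844 has several levels, of which those of F4 and F7 overlap on the CPM shown.

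Many transcripts, with or without a wide gap, took several levels. Neighbouring females were counted as separate where their libraries did not overlap in log2 CPM centred by treatment. On this count, 21 of the 200 transcripts had 7 separate levels (10.5%, against 0.302% of the 17888). Another 75 had 6 (37.5%, against 1.96%) and 62 had 5 (31%, against 5.24%). There were 31 with 4 (15.5%, against 12.4%) and 11 with 3 (5.5%, against 21.9%). The choice by F favours females that separate, so these shares describe the list. ENSOMYG00000002844 had a level for each female on the centred scale, and was at 2.94, 0.392, 8.52, 14.6, 0.556, 10.8 and 1.08 CPM in gynogenetic libraries and 3.42, 0.425, 9.23, 16.5, 0.700, 14.9 and 0.963 CPM in control libraries. The order from low to high was F2, F6, F8, F1, F3, F7 and F4 in both sets of libraries. Without centring, the libraries of F4 and F7 overlap, with 14.6 CPM in the gynogenetic library of F4 and 14.9 CPM in the control library of F7. With 2 libraries a female, that neighbours do not overlap is a weak criterion, and the lowest count of this transcript was 18.

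The female at the bottom and the female at the top varied. Female F2 was the lowest in 18% of the 200 transcripts, against 14.8% of the 17888 genes, F1 in 16.5% against 19.7%, F4 in 16% against 17.5%, F8 in 15% against 16.5%, F7 in 13% against 13.4%, F6 in 12% against 9.83% and F3 in 9.5% against 8.22%. Female F8 was the highest in 19.5% of the 200, against 15.3% of the 17888, F3 in 18.5% against 15.8%, F1 in 17% against 10.5%, F6 in 13.5% against 17.9%, F7 in 12.5% against 10.6%, F4 in 12% against 21.2% and F2 in 7% against 8.63%. The widest difference between these shares was that of F4 as the highest female. Over the 21 pairs of females, 77 (F3 and F7) to 120 (F4 and F8) of the transcripts differed more than 2-fold, against 17.2% to 29.0% of the 17888 genes. The lowest female lay farther from the median female than the highest did in 139 of the 200 transcripts (69.5%), against 56.7% of the 17888. After centring, gynogenetic and control libraries of a female differed more than 2-fold in 4 of the 1400 combinations of a transcript and a female. The median absolute difference was 0.13 log2 in the 200 and 0.31 log2 in the 17888. F divides by the variance of these differences, so their small size in the 200 is set by the rule.

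Several transcripts shared a profile over the 7 females. Of the 19900 pairs, 28 had a Pearson's r above 0.95 and 11 one below -0.95, and 43 of the 200 transcripts had a partner above 0.95. With 7 points, many of them set by a single clutch, these are descriptions without a p. Such pairs were not counted over all genes with enough counts. Whether they are more common among the 200 than among other genes was thus not tested. The closest and the most opposed pair, described next, were the extremes of all 19900 pairs. The closest pair was ENSOMYG00000034649 with ENSOMYG00000011095, with an r of 0.989. ENSOMYG00000011095 was at 72.6, 74.7, 103, 89.3, 1.42, 68.0 and 58.8 CPM in gynogenetic libraries and 57.9, 61.1, 94.9, 87.9, 1.97, 73.4 and 53.1 CPM in control libraries, and both transcripts were scarce in female F6 alone.

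The most opposed pair was ENSOMYG00000045469 with ENSOMYG00000029404, with an r of -0.99. ENSOMYG00000029404 was at 6.13, 54.4, 8.44, 5.62, 7.26, 5.21 and 6.57 CPM in gynogenetic libraries and 5.76, 67.7, 6.06, 5.58, 6.73, 3.88 and 6.78 CPM in control libraries. It was abundant in female F2 alone, the female in which ENSOMYG00000045469 was scarce. Whether the 2 identifiers are copies of a gene was not tested, since neither sequence nor position was at hand.

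Of the 7 females with libraries, the study grouped F1, F4, F7 and F8 as having increased and F2, F3 and F6 as having decreased competence for gynogenesis. Competence here means more or fewer surviving gynogenetic embryos. A further female of its decreased group was excluded by the study for poor library quality and too few reads. In the study's clustering by genes correlated with survival, gynogenetic eggs of female F1 fell with the low group instead. Few of the 200 transcripts followed the grouping by survival. In log2 CPM centred by treatment, all libraries of the decreased group lay above all libraries of the increased group in 3 of the 200 (1.5%), against 0.302% of the 17888, and the opposite was seen in 0 of the 200, against 0.285% of the 17888. As the choice by F favours transcripts whose females separate, a higher share than over all genes is built into the list, and 3 transcripts are few.

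The widest of the 3 was ENSOMYG00000075730, at 14.3, 26.7 and 63.7 CPM in the gynogenetic libraries of F2, F3 and F6 with decreased competence, against 1.81, 4.77, 8.67 and 0.664 CPM in those of F1, F4, F7 and F8. In control libraries it was at 12.2, 25.8 and 67.3 CPM with decreased competence, against 1.42, 3.23, 10.7 and 0.879 CPM with increased competence. ENSOMYG00000033250 was at 22.2, 36.6 and 26.4 CPM in gynogenetic libraries with decreased competence, against 7.36, 19.3, 4.29 and 10.9 CPM with increased competence. ENSOMYG00000037740 was at 22.2, 14.1 and 23.4 CPM in gynogenetic libraries with decreased competence, against 4.53, 6.09, 11.3 and 8.84 CPM with increased competence. The groups came close to each other in all 3. The lowest value with decreased competence was 1.64 times the highest with increased competence in gynogenetic libraries and 1.15 times in control libraries for ENSOMYG00000075730. It was 1.15 times in gynogenetic and 1.23 times in control libraries for ENSOMYG00000033250, and 1.25 times in gynogenetic and 1.8 times in control libraries for ENSOMYG00000037740. Taken in gynogenetic libraries alone, 8 of the 200 transcripts parted the females by competence, 4 in each direction (4%, against 3% of the 17888). In control libraries alone 4 did (2%), which is below the 6.56% of the 17888.

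Gynogenetic and control eggs differed in these transcripts by less than the lowest and highest female did. The choice by F favours wide differences between females, so this comparison is partly set by the rule. The mean log2 CPM of gynogenetic libraries minus that of control libraries had a median absolute size of 0.16 over the 200 and 0.21 over the 17888. This difference was removed before F was computed, so its direction played no part in the choice. In edgeR's quasi-likelihood test over all 17888 genes, 0 of the 200 had a Benjamini-Hochberg adjusted p below 0.05, against 0.486% of all genes tested. An unadjusted p below 0.05 was found in 2 of the 200, against 1353 of the 17888. This test left the female out of the fit, so differences between females, for which the transcripts were chosen, counted as error. The choice by F thus favours few calls, and the 0 is not a result about treatment in these transcripts. DESeq2's Wald test, which likewise left the female out, called 0 of the 200, against 277 of the 17888, and the same limit holds for it.

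The female takes up much of the spread in these transcripts, and the 2 libraries of a clutch are paired. With the replicate number as a block, edgeR called 14 of the 200, 3 higher and 11 lower in gynogenetic libraries, against 6.96% of the 17888 genes. The share of 7% among the transcripts is near that of all genes and is not a result about them. The choice by F prefers a small residual within females, which also favours this fit.

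ENSOMYG00000025779 was at 37.8, 44.0, 50.3, 48.5, 43.9, 32.2 and 8.63 CPM in gynogenetic libraries, against 62.3, 70.0, 78.7, 96.6, 74.9, 74.2 and 14.9 CPM in control libraries. It was lower in the gynogenetic library of every female, including F8, whose level was low in both. Its log2 fold change was -0.85 ± 0.12 (SE) with the block, with an adjusted p of 0.00035 in edgeR, and -0.86 ± 0.35 without it, with an adjusted p of 0.52. The choice by F favours a small SE with the block, so that SE and its p are partly set by the rule. Without female F8 the fit without block gave an adjusted p of 0.0369, the only call among the 200 when a female was left out.

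ENSOMYG00000076641 was at 3.77, 4.97, 7.29, 9.58, 7.64, 8.26 and 0.349 CPM in gynogenetic libraries, against 2.03, 2.3, 2.89, 5.05, 2.93, 4.46 and 0.209 CPM in control libraries. It was higher in the gynogenetic library of every female, although female F8 held the least of it in both groups. Its log2 fold change was 1.03 ± 0.19 (SE) with the block, with an adjusted p of 0.00268 in edgeR, and 1.04 ± 0.56 without it, with an adjusted p of 0.764. Here too the SE and p with the block are partly set by the choice by F. In the plot of the treatment difference these 2 transcripts lie on opposite sides of 0, and the span over females of each exceeds its treatment difference.

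**Figure D5:**
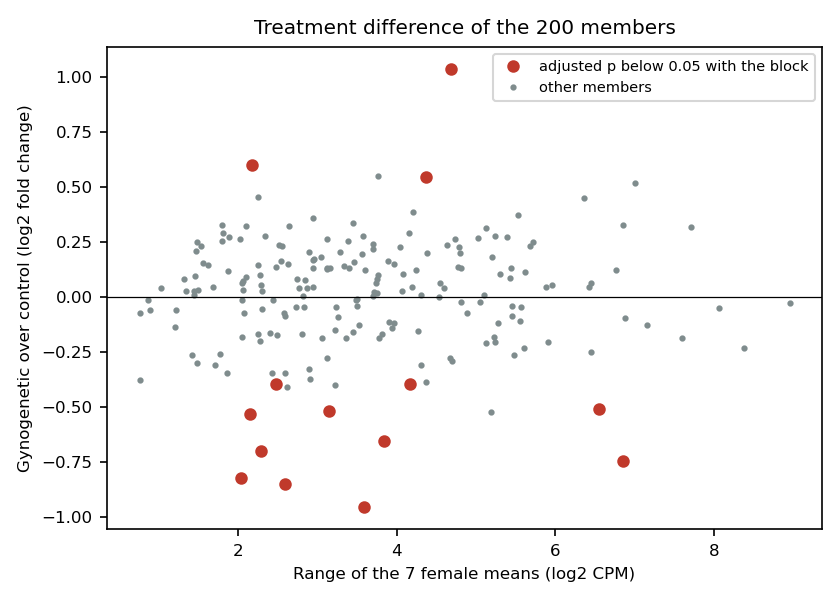
Gynogenetic over control log2 fold change from edgeR with the replicate block, against the range of the 7 female means (log2 CPM), 1 point per member. The 14 members in red passed an adjusted p of 0.05, 3 above and 11 below 0. The range over females exceeded the treatment difference in each of the 200. The choice by F favours wide ranges and a small error in this fit.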

How the data were processed

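RNA was sequenced from 14 pools of rainbow trout eggs, 1 gynogenetic and 1 control pool for each of 7 females. The authors checked reads with FastQC 0.11.9, trimmed them with Flexbar, aligned them to OmykA_1.1 with STAR 2.7.5c and used HTSeq 1.99.2 with the Ensembl annotation for counting, whose strand setting is not stated. The deposited counts are not normalized, and 5 summary lines per library were left out. CPM was computed here from the deposited counts as the count over the sum of all gene counts. Nearly all counts are even, so counting errors were computed with 2 counts per fragment.

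Treatment came from the GEO labels and the replicate number from the sample titles. The number of the female and its competence came from the study's supplement and survival table. The replicate number pairs the 2 libraries of a clutch: deviations from the group mean correlated with r of 0.543 to 0.74 within a number and of -0.404 to 0.156 between numbers.

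Gynogenetic and control libraries were compared with edgeR 4.0.16 (TMM, quasi-likelihood test, R 4.3.3), without and with the replicate block. DESeq2 1.42.0 was run without the block only. The edgeR fits and the F statistic were first tested on simulated data. The fit without the block found 9 of 88 changes of 2-fold (10.2%), and the fit with the block 64 of 88 (72.7%). Both found all 112 changes of 8-fold. Unchanged genes called numbered 0 without the block and 13 with it. In the simulation the fit without the block thus missed most changes of 2-fold. The members, gene lists and alternatives were chosen with earlier results of these data known. The rule for named genes took the 3 transcripts on each side of the limit and the members with the lowest treatment p. Of the latter, only the lowest in each direction is described above, ENSOMYG00000025779 and ENSOMYG00000076641. Passed over were ENSOMYG00000075467, ENSOMYG00000066716 and ENSOMYG00000008408, all lower in gynogenetic libraries. Their unadjusted p was 0.043, 0.060 and 0.080 in edgeR's quasi-likelihood test without the block, and that of ENSOMYG00000076641 was 0.081. The other identifiers were chosen as examples after their values were seen. Positions of the members were not analysed here.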

Additional observations from a re-analysis of the deposited data

Results flagged for a closer look

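Among the 10 transcripts with the highest F, 6 had a library far from the other 6 of its group, by Dixon's ratio on log2 CPM, and in each it was the same female in both groups. ENSOMYG00000059980 was at 4.16 CPM in the gynogenetic and 3.81 CPM in the control library of female F8. ENSOMYG00000071601 was at 1.87 CPM in the gynogenetic and 1.58 CPM in the control library of female F4. ENSOMYG00000034649 was at 0.247 CPM in the gynogenetic and 0.219 CPM in the control library of female F6. ENSOMYG00000045469 was at 1.79 CPM in the gynogenetic and 1.52 CPM in the control library of female F2. ENSOMYG00000071939 was at 0.871 CPM in the gynogenetic and 1.07 CPM in the control library of female F1, and ENSOMYG00000025918 was at 1.60 CPM in the gynogenetic and 2.1 CPM in the control library of the same female.

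Such a library was found in 44 of the 200 transcripts in the gynogenetic group (22%, against 5.31% of the 17888 genes) and in 40 in the control group (20%, against 7.07%). In 37 it was the same female in both groups, which was not counted over the 17888 genes. The choice by F favours such a match between the 2 libraries of a female. Chance marks about 1 in 20 groups of 7 libraries, and the choice by F favours transcripts in which a single female stands apart.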

How the results depend on the processing

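The list depends on the statistic more than on the scaling. Of the 200 transcripts, 164 stayed among the top 200 with TMM scaling, 156 with DESeq2 size factors, 164 with at least 50 and 134 with at least 100 counts in every library. With linear CPM 73 stayed, with edgeR's F over females 95 and with the spread of the female means alone 54. Leaving out each female in turn kept 123 to 153. Chosen after seeing the data, at least 20 counts kept 192, and a within-female variance no lower than the counting variance kept 185.

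The median range over females was 2.93 log2 with a pseudocount of 1 CPM, against 3.42 without it. Wide gaps numbered 134 at a gap of 40% of the range and 51 at 60%. The females parted by competence in 8 transcripts in gynogenetic libraries alone and in 4 in control libraries alone (2%, against 6.56% of all genes). The windows for neighbouring members were not run, because the members have no position.

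With the replicate block edgeR called 14 of the 200 transcripts and 1245 of the 17888 genes, against 0 and 87 without it, and with halved counts and the block, added after seeing the data, 14 and 1266. Leaving out each female from the fit without the block gave 0 to 1 of the 200 and 21 to 64 of all genes. The fit with the block was not repeated in this way. Without the block, DESeq2's Wald test called 277 of the 17888 genes. With the looser filter at a mean above 1 normalized count, edgeR without the block called 57 of 30919 genes. The cause of these changes was not tested. The 5 transcripts with the lowest treatment p kept their direction in every fit. These fits reuse the same libraries, and the choice by F favours treatment differences that are alike in the females. The kept direction was thus largely set in advance.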
